A study of Mus musculus with 10 samples.

Results

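Polycomb repressive complex 1 (PRC1) is described here through 10 genes: Ring1 and Rnf2, which encode its RING ubiquitin ligases, Bmi1, Pcgf1, Pcgf2, Pcgf3, Pcgf5 and Pcgf6, which encode the 6 PCGF proteins, and Rybp and Yaf2, which encode a pair of related partners. They were chosen by name from a table of intronic RPKM, in which each of the 10 has 1 row among 24901. Values were read in all 8 columns of that table, and all 10 genes passed the filter on low values (a mean of at least 0.1 RPKM).

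PRC1 places a single ubiquitin on histone H2A. Every PRC1 complex holds RING1 (gene Ring1) or RING1B (gene Rnf2) bound to 1 PCGF protein, and the PCGF protein sets which other subunits join. Complexes with PCGF2 or BMI1 can take up a CBX protein, which reads the H3 methylation made by Polycomb repressive complex 2 (PRC2), and are called canonical. Complexes with RYBP or YAF2 lack the CBX proteins that read this methylation and are called variant, and RYBP itself binds ubiquitinated H2A.

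Bru-seq captured newly made RNA of mouse embryonic stem cells: they took up 2 mM bromouridine for 10 min, and RNA carrying it was purified with an antibody. The 10 samples form 5 groups of 2, all grown with LIF, 1 µM PD0325901 and 3 µM CHIR99021. EloA_WT carries unaltered Elongin A, which is part of a complex that speeds RNA polymerase II along genes, and EloA_K754M and EloA_K754R are edited lines whose lysine K754 became methionine or arginine. The CJ7_WT group is an unedited wild-type line, and Eed_null lacks Eed, a core subunit of PRC2. The series title states that PRC2 methylates Elongin A. Both edited lines were compared with EloA_WT and with each other, and Eed_null with CJ7_WT. EloA_WT, EloA_K754M and EloA_K754R have 1 column per library, whereas CJ7_WT and Eed_null have only 1 pooled column each and so no replicate spread and no test. The labels do not say how many clones an edited line stands for, or that the libraries of a group came from separate cultures, so p-values measure the spread between these libraries, which may be technical.

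The line is labelled CCE28 for EloA_WT and Eed_null and CJ7 for the other groups, while the growth protocol names CJ7 throughout, and the genotype field of the Eed null samples reads EloA null. In every comparison with EloA_WT, and between Eed_null and CJ7_WT, genotype and labelled line cannot be told apart. The targeted genes do not check the labels by their introns: Elongin A (Tceb3) lay between 1.12 and 2.03 RPKM in the 8 columns, and Eed stood at 7.97 RPKM in pooled Eed_null and between 10.0 and 17.1 elsewhere. All 14 embryonic stem cell markers analysed were at 0.5 RPKM or more in every column, with a summed RPKM of 397 in the second EloA_K754M library, 200 in pooled Eed_null and between 220 and 288 elsewhere. The summed RPKM of 19 embryonic fibroblast markers, which could come from feeder cells, was 16.4 and 17.2 in EloA_WT and between 20.0 and 25.4 elsewhere, and that of 10 primitive endoderm markers was 11.5 in pooled Eed_null against 5.48 to 8.01 elsewhere. None of these markers was at 0 in every column, and their part in the results below was not tested. Recovered intronic reads came to between 26367889 and 39186109 per library, 86754342 in the CJ7_WT pool and 72385470 in the Eed_null pool.

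RefSeq promoter windows (GRCm38.p6, 250 bases before to 50 after an annotated start) were matched for 7 of the 10 genes, and Pcgf1, Rybp and Yaf2 had none. CpG-rich start sites are the usual place of variant PRC1, which its subunit KDM2B brings to unmethylated CpG. Shown are Pcgf5 and Bmi1, the genes with the highest ratio of pooled Eed_null to pooled CJ7_WT, and Rnf2, the gene that varied least over the 8 columns. Each is written 5′ to 3′ on the gene's strand, with CG dinucleotides in capitals.
Pcgf5, chr19:36348079-36348378, plus strand: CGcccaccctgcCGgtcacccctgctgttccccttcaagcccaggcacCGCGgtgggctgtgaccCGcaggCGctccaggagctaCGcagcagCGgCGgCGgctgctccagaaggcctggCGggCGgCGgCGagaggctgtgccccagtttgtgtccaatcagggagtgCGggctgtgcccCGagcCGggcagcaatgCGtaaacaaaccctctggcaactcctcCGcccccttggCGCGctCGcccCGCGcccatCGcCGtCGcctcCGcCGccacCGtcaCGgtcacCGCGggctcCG
Bmi1, chr2:18676768-18677067, plus strand: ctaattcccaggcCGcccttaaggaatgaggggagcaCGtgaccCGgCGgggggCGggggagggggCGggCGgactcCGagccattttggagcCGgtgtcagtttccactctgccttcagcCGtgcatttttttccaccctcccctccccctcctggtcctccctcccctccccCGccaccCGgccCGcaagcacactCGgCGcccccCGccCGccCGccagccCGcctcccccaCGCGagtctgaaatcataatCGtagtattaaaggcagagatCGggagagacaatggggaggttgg
Rnf2, chr1:151500942-151501241, minus strand: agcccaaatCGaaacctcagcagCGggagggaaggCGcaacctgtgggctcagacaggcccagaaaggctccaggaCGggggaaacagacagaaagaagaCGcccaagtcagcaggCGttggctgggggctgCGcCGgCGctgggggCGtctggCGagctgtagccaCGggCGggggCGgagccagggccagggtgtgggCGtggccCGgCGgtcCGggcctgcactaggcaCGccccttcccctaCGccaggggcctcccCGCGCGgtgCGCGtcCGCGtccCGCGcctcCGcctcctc
These windows hold 34, 23 and 30 CG dinucleotides, where the median of 32851 windows of the same length was 7. At least as many were found in 7.73% of windows for Pcgf5, 21.5% for Bmi1 and 11.7% for Rnf2. Pcgf5 has 2 further annotated starts with 5 and 35 CG, and intronic reads do not tell which start was used. The motif CACGTG, the E-box to which the MGA and MAX proteins of PCGF6 complexes bind, reads the same on both strands and stood in the windows of Bmi1 and Pcgf2, 2 of the 9 windows of these genes, against 7.15% of all windows. The motif itself contains a CG.

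**Figure D1:**
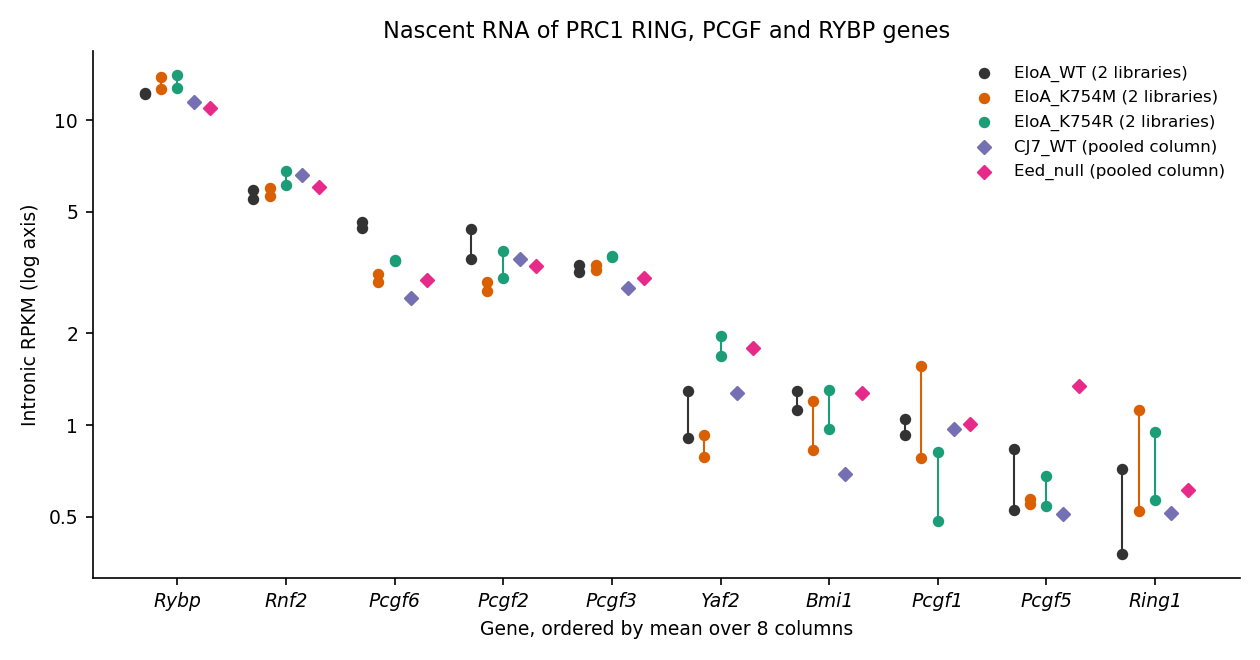
Intronic RPKM (log axis) of the 10 genes, ordered by their mean over the 8 columns; circles are single libraries joined by a line within a group of 2, and diamonds are the pooled columns. Rybp lies between 11.0 and 14.1 RPKM in all columns, Pcgf5 is highest in pooled Eed_null at 1.34, and the Ring1 points rest on 4 to 11 reads per library.

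Mean levels over the 8 columns ran from 12.6 RPKM for Rybp to 0.673 for Ring1. Of all 24901 genes, of which 15193 reached a mean of 0.1 RPKM, 61.8% had a lower mean than Ring1. RPKM is scaled by intron length, and the levels of Rybp, Rnf2 and Pcgf5 can include reads of the overlapping genes, given with the Eed_null comparison. In EloA_WT the order was Rybp, Rnf2, Pcgf6, Pcgf2, Pcgf3, Bmi1, Yaf2, Pcgf1, Pcgf5 and Ring1. The ranges of neighbours were apart from Rybp down to Bmi1 and again between Pcgf1 and Pcgf5. Those of Bmi1 and Yaf2, of Yaf2 and Pcgf1, and of Pcgf5 and Ring1 overlapped. Pcgf6 ranked 3 in EloA_WT, 4 in both edited lines and 5 in both pooled columns, while Rybp ranked 1 and Rnf2 ranked 2 in all 5 groups. In EloA_K754R the ranges of Pcgf6 and of Pcgf2, next in order, overlapped, and the pooled columns have no range.

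Of the ligase genes, Rnf2 had the higher intronic RPKM in every column. Rnf2 (ENSMUSG00000026484, chromosome 1), whose product is the main H2A ubiquitin ligase of embryonic stem cells, stood at 5.91 and 5.53 RPKM in EloA_WT, 6.01 and 5.62 with EloA_K754M, 6.11 and 6.80 with EloA_K754R, 6.62 in the CJ7_WT pool and 6.05 in the Eed_null pool. Its highest value was 1.23 times its lowest, and 95.7% of the 24901 genes had a lower mean. The EloA_WT and EloA_K754M libraries overlapped, and both EloA_K754R libraries lay above EloA_WT by less than the spread could separate (log2 change 0.17, 95% interval -0.12 to 0.46). Ring1 (ENSMUSG00000024325, chromosome 17), the paralog, stood at 0.718 and 0.378 RPKM in EloA_WT, 0.522 and 1.12 with EloA_K754M, 0.949 and 0.567 with EloA_K754R, 0.513 in the CJ7_WT pool and 0.614 in the Eed_null pool. All 3 groups overlapped. Its introns are short (646 bases in GENCODE M21 on GRCm38), and between 4 and 11 recovered reads per library lay behind these values. Recovered reads may be scaled differently for different genes, as given with the processing. The exact 95% Poisson intervals cover counting error only and take 1 step as 1 read. They ran from 0.103 to 0.967 RPKM in the lowest library and from 0.559 to 2.01 in the highest. The ratio of Rnf2 to Ring1 varied between 5.01 and 14.6, and no change in Ring1 was detectable at this depth.

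Among the genes of canonical complexes, Pcgf2 exceeded Bmi1 in every column. Pcgf2 (MEL18, ENSMUSG00000018537, chromosome 11) stood at 4.41 and 3.51 RPKM in EloA_WT, 2.94 and 2.75 with EloA_K754M, 3.72 and 3.03 with EloA_K754R, 3.51 in the CJ7_WT pool and 3.32 in the Eed_null pool. Both EloA_K754M libraries were below both EloA_WT libraries, and EloA_K754R overlapped EloA_WT. Bmi1 (PCGF4, ENSMUSG00000026739, chromosome 2), known for holding down the Ink4a/Arf locus and for stem cell renewal, stood at 1.12 and 1.29 RPKM in EloA_WT, 0.829 and 1.20 with EloA_K754M, 0.972 and 1.30 with EloA_K754R, 0.69 in the CJ7_WT pool and 1.27 in the Eed_null pool. The pooled CJ7_WT value was the lowest of the 8, the 3 Elongin A groups overlapped, and pooled Eed_null lay within their range. Between 138 and 319 reads per library lay behind Bmi1.

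The genes of variant complexes differed in level and in spread. Pcgf1 (NSPC1, ENSMUSG00000069678, chromosome 6), the partner of KDM2B and BCOR, stood at 1.05 and 0.926 RPKM in EloA_WT, 1.56 and 0.782 with EloA_K754M, 0.486 and 0.815 with EloA_K754R, 0.971 in the CJ7_WT pool and 1.01 in the Eed_null pool. Both EloA_K754R libraries lay below EloA_WT, but only 12 to 35 reads per library were counted. The 95% Poisson interval of the lowest library (0.251 to 0.848 RPKM) met that of the first EloA_WT library (0.716 to 1.50).

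Pcgf3 (ENSMUSG00000033623, chromosome 5) and Pcgf5 encode closely related subunits of AUTS2-containing complexes that take part in X inactivation. Pcgf3 stood at 3.17 and 3.34 RPKM in EloA_WT, 3.35 and 3.23 with EloA_K754M, 3.55 and 3.58 with EloA_K754R, 2.81 in the CJ7_WT pool and 3.03 in the Eed_null pool. After Rnf2 it was the least variable of the 10 genes (SD of log2 0.11 over the 8 columns, 0.10 for Rnf2). Pcgf5 (ENSMUSG00000024805, chromosome 19) stood at 0.836 and 0.525 RPKM in EloA_WT, 0.553 and 0.571 with EloA_K754M, 0.68 and 0.544 with EloA_K754R, 0.511 in the CJ7_WT pool and 1.34 in the Eed_null pool. All 3 Elongin A groups overlapped, and the Eed_null value was the highest of the 8. The EloA_WT libraries differed by more than counting error, since their Poisson intervals (0.804 to 0.87 and 0.497 to 0.554 RPKM) were apart on 2434 and 1290 reads.

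Pcgf6 (ENSMUSG00000025050, chromosome 19), the subunit of the complex with MGA, MAX, E2F6 and L3MBTL2 that holds down germline genes, stood at 4.43 and 4.64 RPKM in EloA_WT, 3.13 and 2.95 with EloA_K754M, 3.48 and 3.46 with EloA_K754R, 2.61 in the CJ7_WT pool and 3.00 in the Eed_null pool. Both EloA_WT libraries were above all 6 other columns, a pattern shown by 13.0% of 15193 genes and by no other of the 10. Replicates were close, with 4.54 ± 0.148 in EloA_WT, 3.04 ± 0.128 in EloA_K754M and 3.47 ± 0.0132 in EloA_K754R (SD, n = 2 each).

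Rybp (ENSMUSG00000072872, chromosome 6) had the highest intronic RPKM of the 10, and 98.5% of the 24901 genes had a lower mean. It stood at 12.3 and 12.2 RPKM in EloA_WT, 13.9 and 12.7 with EloA_K754M, 14.1 and 12.8 with EloA_K754R, 11.5 in the CJ7_WT pool and 11.0 in the Eed_null pool. Both edited lines lay above EloA_WT and the pools, and the highest of the 8 values was 1.28 times the lowest. Yaf2 (ENSMUSG00000022634, chromosome 15), its paralog, stood at 1.29 and 0.908 RPKM in EloA_WT, 0.927 and 0.788 with EloA_K754M, 1.96 and 1.69 with EloA_K754R, 1.27 in the CJ7_WT pool and 1.79 in the Eed_null pool. Both EloA_K754R libraries were above every EloA_WT and EloA_K754M library, on 3223 and 3729 reads. Its SD of log2(RPKM + 0.1) over the 8 columns was the largest of the 10 at 0.46, against 0.12 for Rybp. Ring1 was close at 0.44, and Pcgf1 and Pcgf5 at 0.42. By the ratio of highest to lowest value, Yaf2 (2.49) came behind Pcgf1 (3.21), Ring1 (2.97) and Pcgf5 (2.61). The ratio of Rybp to Yaf2 was 9.53 and 13.4 in EloA_WT, 14.9 and 16.1 with EloA_K754M, 7.21 and 7.60 with EloA_K754R, 9.08 in the CJ7_WT pool and 6.15 in the Eed_null pool, so the ranges of the 3 Elongin A groups did not overlap. With 2 libraries against 2 no exact permutation test of such a ratio can reach the threshold, and none was made.

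The comparisons of the edited lines asked whether replacing K754 changed transcription of these genes. Limma was run on log2(RPKM + 0.1), with Benjamini-Hochberg adjustment over 15161 genes and a threshold of 0.05. None of the 10 genes passed that threshold in any of the 3 comparisons. With 2 libraries per group this does not show that they were unchanged. Over all genes 0.218% were called in EloA_K754M against EloA_WT, 3.48% in EloA_K754R against EloA_WT and 0.29% in EloA_K754M against EloA_K754R. At an unadjusted p under 0.05 there were 2, 2 and 1 of the 10, where 15.4%, 25.1% and 18.5% of all genes passed. With voom on recovered reads 0, 1 and 1 of the 10 were called, where it called 2.27%, 8.46% and 2.98% of 15097 genes. The median change of the 10 was -0.10, 0.02 and -0.13 on the log2 scale, beside -0.06, -0.14 and 0.09 for all genes. The comparisons with EloA_WT share its 2 libraries.

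**Figure D2:**
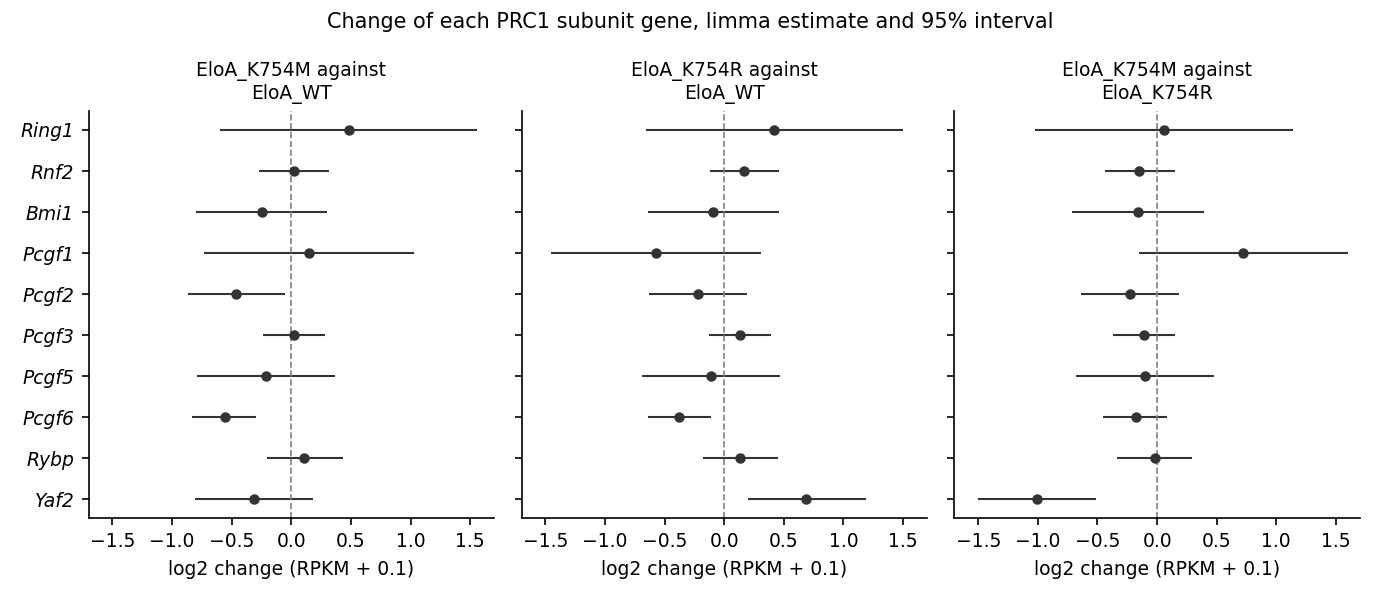
Log2 change of each gene in the 3 comparisons among EloA_WT, EloA_K754M and EloA_K754R (2 libraries each); points are limma estimates on log2(RPKM + 0.1) and bars their unadjusted 95% intervals. Intervals leave out 0 for Pcgf2 and Pcgf6 in the left panel, Pcgf6 and Yaf2 in the middle and Yaf2 on the right, and none of these passed the adjusted threshold.

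The smallest adjusted p belonged to Pcgf6 and Yaf2. Pcgf6 was 1.48-fold lower in EloA_K754M than in EloA_WT (log2 change -0.56, SE 0.11, limma adjusted p = 0.106) and 1.30-fold lower in EloA_K754R (-0.38, SE 0.11, adjusted p = 0.104), in 2 of 2 libraries each, and neither passed the threshold. Adjusted p ran from 0.0628 to 0.363 and from 0.0621 to 0.457 over the alternatives. With equal library medians the change of Pcgf6 was -0.44 in EloA_K754M and -0.19 in EloA_K754R. With chromosome medians subtracted it was -0.52 and -0.23. The edited lines themselves differed by -0.18 (95% interval -0.45 to 0.08). Pooled CJ7_WT, which shares the labelled line of the edited cells, was lower still at 2.61 RPKM.

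Yaf2 was 1.62-fold higher in EloA_K754R than in EloA_WT (log2 change 0.69, SE 0.20, limma adjusted p = 0.107) and not separated from it in EloA_K754M (-0.31, 95% interval -0.81 to 0.18). Between the edited lines it was 2.01-fold lower in EloA_K754M (-1.01, 95% interval -1.50 to -0.51, adjusted p = 0.101), in 2 of 2 libraries. Voom on recovered reads put both differences past the threshold (adjusted p = 0.0478 and 0.0255). Over all alternatives the adjusted p ran from 0.037 to 0.377 for EloA_K754R against EloA_WT and from 0.0255 to 0.39 between the edited lines. Yaf2 in EloA_K754R was close to pooled Eed_null (1.79 RPKM).

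Pcgf2 was 1.37-fold lower in EloA_K754M than in EloA_WT (log2 change -0.46, SE 0.17, limma adjusted p = 0.281). It lies on chromosome 11, where the median of 1314 genes was also -0.46 in this comparison and -0.56 in EloA_K754R against EloA_WT. With the median of its chromosome subtracted, Pcgf2 stood at 0.01 in EloA_K754M and 0.34 in EloA_K754R, so its direction turned in both. The interval of Pcgf1 in EloA_K754R against EloA_WT included 0 (-0.57, 95% interval -1.45 to 0.31). The remaining genes were bounded to different degrees. In EloA_K754M against EloA_WT the interval was -0.24 to 0.28 for Pcgf3, -0.27 to 0.32 for Rnf2, -0.20 to 0.43 for Rybp, -0.80 to 0.30 for Bmi1, -0.79 to 0.37 for Pcgf5, -0.73 to 1.03 for Pcgf1 and -0.60 to 1.56 for Ring1. For EloA_K754R against EloA_WT it was -0.13 to 0.39 for Pcgf3, -0.18 to 0.45 for Rybp, -0.64 to 0.46 for Bmi1, -0.69 to 0.47 for Pcgf5 and -0.66 to 1.50 for Ring1.

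Non-overlap of groups was itself common. In EloA_K754M against EloA_WT, Pcgf2 and Pcgf6 had both libraries lower, as had 27.2% of all genes, and Rybp had both higher, as had 17.0%. In EloA_K754R against EloA_WT, Pcgf1 and Pcgf6 were lower (38.8% of all genes) and Rnf2, Pcgf3, Rybp and Yaf2 higher (18.0%). Between the edited lines Rnf2, Pcgf2, Pcgf3, Pcgf6 and Yaf2 were lower in EloA_K754M (18.6% of all genes) and none of the 10 was higher (31.9%).

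The comparison of Eed_null with CJ7_WT asked how these genes are transcribed without PRC2. Pcgf5 and Bmi1 stood highest relative to CJ7_WT, and Rnf2, Pcgf2 and Rybp were at or slightly under it. Pcgf5 had 1.34 RPKM on 8075 reads in pooled Eed_null and 0.511 on 3696 in pooled CJ7_WT, a ratio of 2.61 (exact 95% interval 2.51 to 2.72, counting error only), and 96.3% of 14890 genes had a lower ratio. Bmi1 had 576 reads against 374, a ratio of 1.84 (1.62 to 2.10). These 2 of the 10 were at least 1.5-fold higher and none was 1.5-fold lower, where 16.0% of all genes were that much higher and 5.37% lower. With 1 pooled column a side there is no replicate check.

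**Figure D3:**
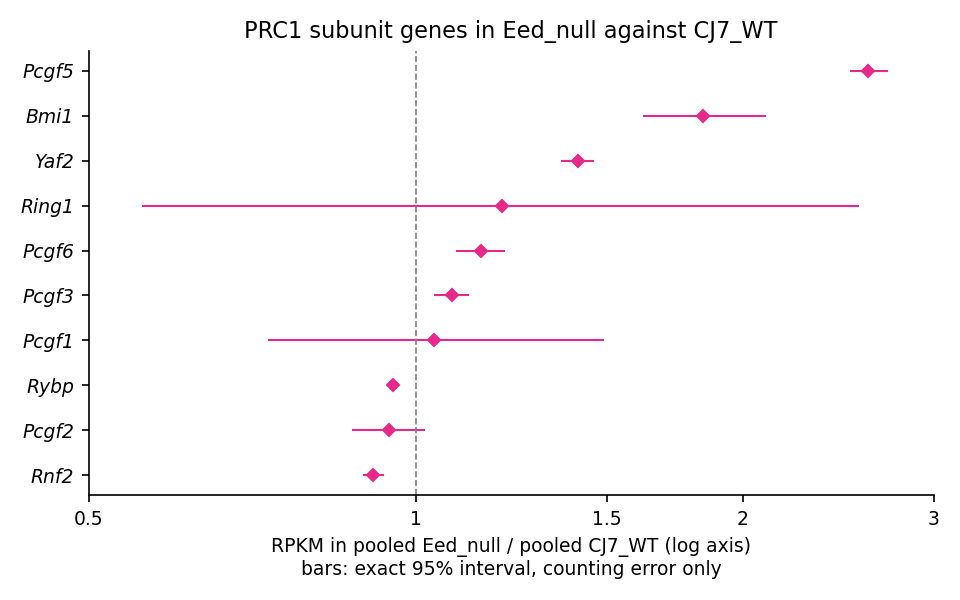
Ratio of RPKM in pooled Eed_null to pooled CJ7_WT (log axis) for each of the 10 genes; bars are exact 95% intervals for the ratio of reads and cover counting error only. Pcgf5 at 2.61 and Bmi1 at 1.84 lie above the 1.5-fold mark, Yaf2 at 1.41 just under it, and the interval of Ring1, on 16 reads in each column, runs from 0.56 to 2.56.

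Only for Pcgf5 among the 10 was Eed_null above all 7 other columns, as it was for 21.4% of 15193 genes. Bmi1 in Eed_null was instead inside the range of the Elongin A libraries, and its ratio rested on the low CJ7_WT value. Yaf2 had a ratio of 1.41 (1.36 to 1.46), also within the range of the Elongin A libraries. Rybp in Eed_null was below all other columns, as were 17.1% of genes, by a ratio to CJ7_WT of 0.954 (0.943 to 0.966). Rnf2 had a ratio of 0.914 (0.894 to 0.935), Pcgf2 0.945 (0.873 to 1.02), Pcgf3 1.08 (1.04 to 1.12), Pcgf6 1.15 (1.09 to 1.21) and Pcgf1 1.04 (0.731 to 1.49). The median log2 ratio was 0.15 for the 10 genes and 0.11 for all genes, and 7 of the 10 were above 0, as were 61.8% of all genes. With both columns set to equal medians 5 of the 10 were above 0, as Pcgf1 and Pcgf3 turned to -0.06 and -0.01. With chromosome medians subtracted these stood at -0.07 and -0.04, and Pcgf6 at 0.00. In bulk samples, fewer cells of a type and less RNA per cell cannot be told apart. GENCODE on GRCm38 places other genes over the introns or ends of Pcgf5 (the antisense F530104D19Rik among them), Rnf2 (Trmt1l on the opposite strand) and Rybp (the pseudogene Gm18422), and how reads were assigned to strands is not given in the sources used here, so such reads cannot be told apart.

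**Figure D4:**
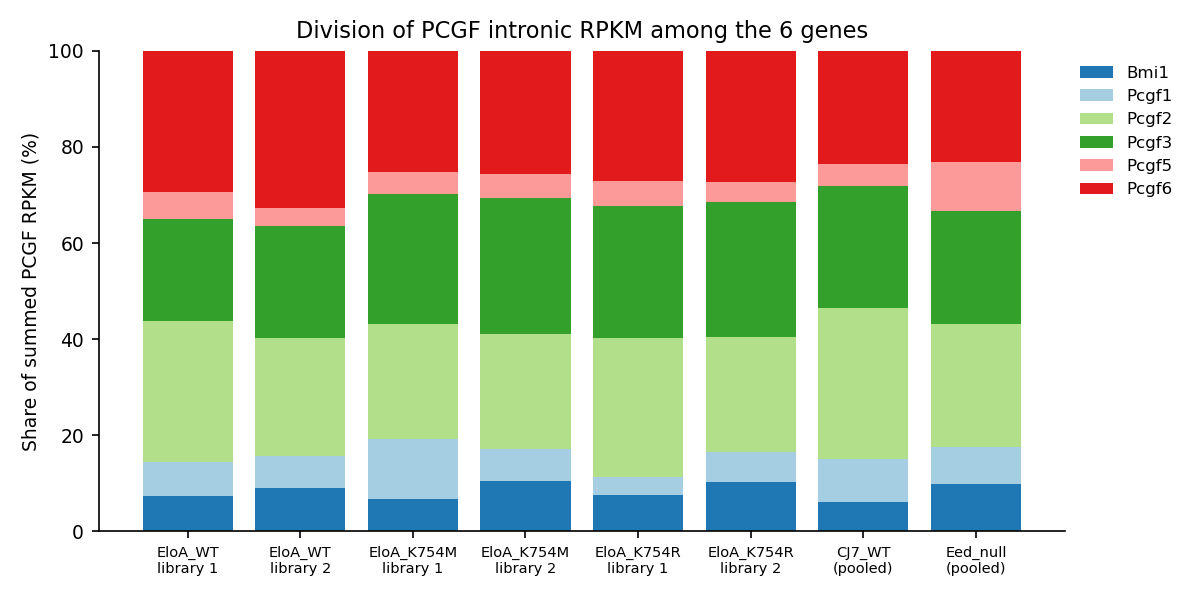
Share of the summed intronic RPKM of the 6 PCGF genes held by each gene, in percent, for the 6 single libraries and both pooled columns; each bar adds up to the whole. The Pcgf5 share is 10.3% in pooled Eed_null and between 3.69% and 5.57% in the other columns.

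Because each PRC1 complex holds 1 PCGF protein, the transcription of these genes was also expressed as shares of the sum over the 6 genes. Pcgf2, Pcgf3 and Pcgf6 held the largest shares in every column. Pcgf6 held 29.5% and 32.6% in EloA_WT, 25.4% and 25.7% with EloA_K754M, 27.0% and 27.2% with EloA_K754R, 23.5% in the CJ7_WT pool and 23.1% in the Eed_null pool. Pcgf3 held 21.1% and 23.4% in EloA_WT and between 27.1% and 28.2% in the 4 libraries of the edited lines, so for both genes EloA_WT did not overlap the edited lines. The RPKM of Pcgf3 itself overlapped between EloA_WT and EloA_K754M, where the RPKM of Pcgf6 and Pcgf2, which enter the sum, were lower. Pcgf2 held between 23.8% and 31.6%, with EloA_K754M (23.8% and 23.9%) below EloA_WT (29.4% and 24.6%). Pcgf1 held between 3.77% and 12.6%, with EloA_K754R (3.77% and 6.41%) below EloA_WT (7.01% and 6.51%) on few reads. Bmi1 held between 6.22% and 10.4%, and its 3 Elongin A groups overlapped. Pcgf5 held 10.3% in pooled Eed_null and 5.57% or less elsewhere. These shares describe nascent RNA per intron length, not protein.

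The other subunits of PRC1 gave a similar count. Of 30 partner genes, all tested, limma called none in any of the 3 comparisons, with 5, 9 and 9 at an unadjusted p under 0.05, beside 15.4%, 25.1% and 18.5% of all genes. Their median change was -0.11 in EloA_K754M and -0.10 in EloA_K754R against EloA_WT, and 0.03 between the edited lines. Kdm2b, the CpG-binding partner of PCGF1, stood at 1.42 and 1.22 RPKM in EloA_WT, 1.81 and 1.74 in EloA_K754M and 0.914 and 0.878 in EloA_K754R, so no group overlapped another. Its difference between the edited lines (log2 0.91, SE 0.13, limma adjusted p = 0.0636) missed the threshold, and the adjusted p ran from 0.00995 to 0.293 over the alternatives. Hdac1, a deacetylase found in PCGF6 complexes, stood at 2.65 and 2.63 RPKM in EloA_WT and 1.59 and 1.34 in EloA_K754R (-0.81, adjusted p = 0.0514), on chromosome 4 with a median of -0.30. Skp1a, an adaptor in the PCGF1 complex on chromosome 11, stood at 8.78 and 9.07 RPKM in EloA_WT and 4.81 and 5.00 in EloA_K754M (-0.85, adjusted p = 0.0648).

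Cbx2, a reader of H3 methylation in canonical PRC1 and also on chromosome 11, stood at 1.96 and 0.938 RPKM in EloA_WT, 0.569 and 0.522 in EloA_K754M and 0.593 and 0.533 in EloA_K754R (limma adjusted p = 0.185 and 0.104). Auts2, a partner of PCGF3 and PCGF5, stood at 0.256 and 0.199 RPKM in EloA_WT and 0.495 and 0.416 in EloA_K754R (0.76, adjusted p = 0.0937). Cbx8 rested on at most 5 reads per library. In pooled Eed_null 7 of the 30 partners were at least 1.5-fold higher than in CJ7_WT and none lower, beside 16.0% and 5.37% of all genes. The widest differences were those of Auts2 (0.95 against 0.329 RPKM), Cbx2 (0.744 against 0.339) and Bcor, the corepressor of the PCGF1 complex (1.75 against 0.872).

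A list of H2A ubiquitin erasers, readers and genes associated with them gave no call among 18 tested in any comparison. At an unadjusted p under 0.05 there were 2, 2 and 3 of the 18, beside 15.4%, 25.1% and 18.5% of all genes. Those with the widest difference in EloA_K754M against EloA_WT were Jarid2, a PRC2 cofactor that binds ubiquitinated H2A (16.7 and 18.4 against 11.0 and 15.2 RPKM), Foxk2 (2.93 and 2.51 against 3.76 and 3.55) and Usp22, a deubiquitinase of the SAGA complex (2.65 and 2.58 against 3.77 and 3.21). Foxk2 (log2 -0.42) and Usp22 (-0.40) lie on chromosome 11, whose median was -0.46. In EloA_K754R against EloA_WT they were Brcc3 (1.55 and 1.51 against 1.21 and 1.16 RPKM), Foxk2 (3.00 and 2.73 in EloA_K754R) and Jarid2 (14.7 and 17.5). Between the edited lines they were Usp22, Bap1 (3.27 and 3.54 in EloA_K754M against 4.20 and 4.60 in EloA_K754R), the H2A deubiquitinase, and Hcfc1 (6.58 and 6.88 against 8.04 and 8.47). Bap1 (log2 -0.36, chromosome 14) and Hcfc1 (-0.29, chromosome X) were near the medians of their chromosomes, -0.30 and -0.24. Of these 18 genes 1 was at least 1.5-fold higher in Eed_null (Asxl3, 0.203 against 0.0964 RPKM) and 1 lower (Brcc3, 0.982 against 1.59), beside the same shares of all genes (16.0% and 5.37%). Usp22 had 3.33 against 2.26 RPKM.

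The 6 PRC2 core genes gave no call by limma either, with 2, 2 and 4 at an unadjusted p under 0.05 (15.4%, 25.1% and 18.5% of all genes). In EloA_K754M against EloA_WT the widest differences were those of Ezh1 (0.416 and 0.391 against 0.891 and 0.785 RPKM) and Suz12 (8.31 and 9.19 against 12.4 and 15.3), both on chromosome 11, and of Eed. In EloA_K754R they were those of Rbbp4 (4.03 and 3.99 against 5.35 and 7.07), Ezh1 (0.532 and 0.635) and Rbbp7 (12.8 and 14.8 against 9.11 and 11.8). Between the edited lines they were those of Rbbp7, Rbbp4 and Suz12. Rbbp4 (log2 -0.61 in EloA_K754R, 0.54 between the edited lines) lies on chromosome 4, whose medians were -0.30 and 0.30. Rbbp7 (0.41 and -0.68) lies on chromosome X, whose medians were 0.26 and -0.24. None of the 6 differed by 1.5-fold in Eed_null, where Rbbp7 had 7.22 against 9.61 RPKM and Ezh1 0.883 against 0.686.

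Germline genes known to be held down by the PCGF6 complex were looked at beside the lower Pcgf6 values of the edited lines. Of 17 genes, 15 were analysed and 14 tested. In EloA_K754R against EloA_WT 1 of the 14 rose, Slc25a31, a mitochondrial ADP/ATP carrier of the male germline, at 0.58 and 0.551 RPKM against 0.117 and 0.146 (log2 change 1.53, SE 0.26, limma adjusted p = 0.0446), where 0.686% of all genes rose. That call was lost without a filter, without the variance trend, with chromosome medians subtracted and in the fit of the 2 groups compared. Fits with 1 library left out hold 1 library in a group, so they could not decide the call. Over all alternatives its log2 change ran from 0.47 to 2.10. None was called in EloA_K754M against EloA_WT or between the edited lines, with 3, 5 and 6 of the 14 at an unadjusted p under 0.05 in the 3 comparisons (15.4%, 25.1% and 18.5% of all genes). Dazl, an RNA-binding germ cell factor, stood at 4.81 and 2.63 RPKM in EloA_WT and 1.84 and 1.20 in EloA_K754M. Taf7l stood at 0.106 and 0.0955 against 0.197 and 0.276, and Stk31 at 1.48 and 1.41 against 1.00 and 0.898. The medians over the list were -0.02 and 0.02 against EloA_WT and -0.23 between the edited lines, beside -0.06, -0.14 and 0.09 for all genes.

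In pooled Eed_null 7 of the 15 germline genes were at least 1.5-fold higher than in CJ7_WT and 1 was lower, beside 16.0% and 5.37% of all genes. Sycp1, of the synaptonemal complex, had 1.67 RPKM on 15324 reads against 0.241 on 2639. Mov10l1, a piRNA helicase, had 0.671 RPKM against 0.132, and Tex101 had 0.384 on 46 reads against 0.0906 on 13. Pcgf6 itself had a ratio of 1.15 between these columns. The median log2 ratio of the list was 0.41, beside 0.11 for all genes.

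For the 3 genes with the largest SD of log2(RPKM + 0.1) over the 8 columns, the genes with the most similar pattern were sought. Candidates were 6590 genes whose mean was 1 RPKM or more. Similarity was Pearson's r of log2(RPKM + 0.1) over the 8 columns, which share libraries and depth within each point. For Yaf2 the most similar genes were Lrig1 (r = 0.968) and Angptl1 (r = 0.958). For Pcgf1 they were Tmem168 (r = 0.937) and Zbtb43 (r = 0.859), and for Ring1 Olfr485 (r = 0.858) and Usp19 (r = 0.855). Lrig1 lay between 1.47 and 2.59 RPKM and Yaf2 between 0.788 and 1.96. Olfr485 was listed at 0 in both pooled columns and reached 22.1 RPKM elsewhere, and both it and Ring1 carry large counting or estimation error. These are the highest of many values over 8 points and are given as a description.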

How the data were processed

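RNA labelled with bromouridine was sequenced from 10 samples. Per the submitters' processing notes, reads were aligned with BWA to mm9, and no counter, annotation, strand handling or depth base is named in the labels or file headers. The authors deposited intronic RPKM for 24901 genes in 8 columns, 6 single libraries and 2 columns named averages, which the file headers and labels tie to the samples. Whole reads were recovered from the steps of these values for 20810 of 20817 genes with 6 or more columns above 0 (99.97%, within 0.01 read, up to 0.06 for high values). The smallest step was taken as 1 read, and whether it is a read or a pair is not known. Set against GENCODE intron lengths, the recovered reads of the 10 genes did not give 1 common depth per library. Ring1, Pcgf2 and Pcgf3 gave a lower depth than Bmi1, Rybp and Yaf2. Whether the step or the intron length differs was not tested, so reads and their intervals may be wrongly scaled for some genes. Both average columns gave whole reads on 1 step, and are called pooled here. Reads carry no molecular identifiers, so intervals cover counting error only.

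For the 6 single libraries, log2(RPKM + 0.1) entered 1 limma 3.58.1 fit (R 4.3.3, lmFit and contrasts.fit, then eBayes with trend) of the 3 Elongin A groups, for the 15161 genes whose mean reached 0.1 RPKM. P-values are two-sided and were adjusted by Benjamini-Hochberg across every gene tested, with a threshold of 0.05 and 3 residual degrees of freedom. The fit was tested on simulated data. A fold on the log2(RPKM + 0.1) scale understates the change of low genes. A gene "rose" or was "called" where its adjusted p was below that threshold. The sign ± gives the SD of n = 2 libraries. Pooled Eed_null was compared with pooled CJ7_WT as a ratio of RPKM with an exact 95% interval from the reads (scipy 1.17.1), without a test, for the 14890 genes whose mean of these columns reached 0.1 RPKM.

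Groups follow titles and column names. Chromosomes came from GENCODE M21 by gene identifier for 22887 genes (91.9%), with no mm9 gene coordinates used here. Named genes were the 10 members, the genes past the threshold of 4 lists (up to 4 each way, otherwise the 3 widest differences, as values), Tceb3, Eed and the 2 most similar genes of the 3 most variable members. The members and lists were chosen with earlier results of these data known. Alternatives covered the pseudocount, filter, scaling, variance trend, replicate block, samples in the fit, chromosome medians, voom on recovered reads and each library left out.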

Additional observations from a re-analysis of the deposited data

How the results depend on the processing

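No member passed the threshold in EloA_K754M against EloA_WT under any alternative run. With the replicate block, and with voom on recovered reads, 1 member (Yaf2) passed in EloA_K754R against EloA_WT (log2 change 0.69 and 0.74) and 1 (Yaf2) between the edited lines (-1.01 and -1.09). The blocked adjusted p was 0.037 and 0.0401. Replicate numbers were not taken as pairs, because the labels do not say that they mark a shared day. Deviations of same-numbered libraries correlated at 0.17, 0.20 and 0.15. The block raised calls over all genes from 0.218% to 1.50%, from 3.48% to 11.7% and from 0.29% to 2.34%, and voom raised them to 2.27%, 8.46% and 2.98%. Of the PRC1 partners, the block called 1, 3 and 2 in the 3 comparisons and voom called 1, 4 and 3, where the main count was 0. These were Skp1a in the first, Hdac1, Kdm2b, Phc1 and, by voom, Auts2 in the second, and Kdm2b, Phc1 and, by voom, Auts2 in the third, named after their values were seen. A mean of at least 0.5 RPKM gave 1 partner (Hdac1) in EloA_K754R against EloA_WT, and quantile normalization gave 1 (Kdm2b) between the edited lines. Voom called 2 PRC2 core genes (Ezh1 and Suz12) in EloA_K754M against EloA_WT and 2 germline genes (Slc25a31 and Stk31) between the edited lines. In EloA_K754R against EloA_WT the germline count of 1 became 2 (Slc25a31 and Taf7l) with the block, voom or quantile normalization. It became 0 without a filter, without the variance trend and in the fit of the 2 groups compared. Chromosome medians subtracted also gave 0. Fits with 1 library left out hold 1 library in a group, so they could not decide the call. At a mean of at least 0.5 RPKM Slc25a31 lay below the filter and was not tested, so the 0 there is no failed call.

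No member passed the threshold in the main fit, and the direction of some changes turned under an alternative. With chromosome medians subtracted Pcgf2 stood at 0.01 in EloA_K754M and 0.34 in EloA_K754R against EloA_WT. In EloA_K754R against EloA_WT, Bmi1 stood at 0.10 with equal library medians or quantile normalization and 0.01 with chromosome medians subtracted, and Pcgf5 at 0.08 and 0.03. Between the edited lines Ring1 stood at -0.01 with equal medians and at -0.02 with quantile normalization or chromosome medians subtracted. Leaving out 1 library gave, in EloA_K754M against EloA_WT, -0.01 to 0.97 for Ring1, -0.02 to 0.07 for Rnf2, -0.30 to 0.61 for Pcgf1, -0.02 to 0.05 for Pcgf3 and -0.50 to 0.08 for Pcgf5. In EloA_K754R against EloA_WT it gave -0.28 to 0.10 for Bmi1 and -0.40 to 0.18 for Pcgf5. Between the edited lines it gave -0.43 to 0.55 for Ring1, -0.40 to 0.08 for Bmi1, -0.24 to 0.04 for Pcgf5 and -0.09 to 0.05 for Rybp. With a pseudocount of 1 RPKM 1 member (Pcgf5) and not 2 was past 1.5-fold in Eed_null. With 0.1 RPKM added to each gene the Rybp to Yaf2 ratio was 14.0 in EloA_K754M and 7.07 in EloA_K754R. The mean shares became 7.15% for Pcgf1 in EloA_WT, 23.5% for Pcgf2, 5.30% for Pcgf5 and 25.1% for Pcgf6 in EloA_K754M, and 27.3% for Pcgf3 and 26.6% for Pcgf6 in EloA_K754R. The causes of these shifts were not tested. Reads per library were fewest for Ring1 (4 to 11) and Pcgf1 (12 to 35).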
